A study of Mus musculus with 6 samples.

Results

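The genes of the ATG8 family and of the machinery that attaches its proteins to membranes were followed in the kidneys of cisplatin-treated mice with and without functional TRPM2, a Ca2+-permeable cation channel. The 10 genes were taken from the count and FPKM tables by name: the LC3 genes Map1lc3a and Map1lc3b, the GABARAP genes Gabarap, Gabarapl1 and Gabarapl2, the lipidation genes Atg4b, Atg7, Atg3 and Atg5, and Sqstm1, which encodes the receptor p62. Each was found on 1 of the 54532 rows, and all 10 passed the filter on low counts, which kept 15816 genes for testing. Bulk kidney RNA was sequenced from 3 WT and 3 Trpm2-/- mice, in libraries numbered 1, 2 and 3 for WT and 1, 2 and 4 for Trpm2-/-. Both genotypes were C57BL/6J by the labels, and by the methods both were male and received cisplatin by a single intraperitoneal injection of 18 mg/kg 72 h before the kidneys were taken. The controls therefore carried the injury too, and untreated kidneys were not analysed here. The labels give an age of 6 to 8 weeks, where the methods give an older range. By the methods, deleted exons leave the Trpm2-/- mice with a protein that lacks part of the membrane-spanning region and has no channel function, and no Cre or promoter limiting this to a cell type is named.

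Autophagy encloses cytoplasm and organelles in a double membrane, the autophagosome, which then fuses with the lysosome. ATG8 proteins, in mammals the LC3 and GABARAP subfamilies, are small ubiquitin-like proteins. The ATG4 proteases trim them to a C-terminal glycine, the E1-like ATG7 and the E2-like ATG3 activate and carry them, and a complex of ATG12, ATG5 and ATG16L1 directs their transfer to phosphatidylethanolamine on the growing membrane. Receptors such as p62 bind both the lipid-bound ATG8 protein and ubiquitinated cargo and are degraded with it. In the kidney, tubular cells are known to use this pathway under cisplatin. Lipidation and degradation act on the protein, and the libraries measured only RNA.

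The glycine that lipidation uses can be read at the end of each coding sequence. The last 30 coding bases of the 5 ATG8 genes are shown because ATG4 cuts there, with the codon of the last glycine in capitals and the stop codon at the end. They were read on the sense strand from the principal transcript of each gene in the GENCODE mouse annotation, release 21, on GRCm38.
Map1lc3a: tacgcctcccaagaaaccttcGGCttctga
Map1lc3b: gagacattcGGGacagcaatggctgtgtaa
Gabarap: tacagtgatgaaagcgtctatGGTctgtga
Gabarapl1: tacagtgatgaaagtgtctatGGAaaatga
Gabarapl2: tacagcggagagaacacttttGGCttctga
In Map1lc3b 5 codons follow the glycine codon, and in the others 1 codon follows it. This glycine is residue 120 in both LC3 proteins and residue 116 in the 3 GABARAP proteins. Over the coding sequence, Gabarap and Gabarapl1 were 74.86% identical, Map1lc3a and Map1lc3b 77.53%, and Gabarapl2 was 64.57% identical to Gabarap and 64.87% to Gabarapl1. Similar as they are, the 5 genes shared none of their 75-base transcript windows with each other (0 of 1178 windows for Map1lc3a, for example), so reads of that length could be told apart between them.

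Total counts per library lay between 14053307 and 17150089, and 3 counts, taken as the floor of detection, corresponded to 0.175 to 0.213 CPM (counts scaled to the library total), a limit that covers counting error only. All other CPM values were normalized by TMM, which scales each library so that most genes have a like level in all of them. The members had between 472 and 13263 counts in a library, far above this floor. The targeted gene, Trpm2, had 5 to 27 counts in WT and 10 to 20 in Trpm2-/- libraries, and since counts over the whole gene include its undeleted exons, this does not check the labels. Genes of the mitochondrial genome took 4.43% to 4.72% of the counts in WT libraries and 7.91% to 11.04% in Trpm2-/- libraries, highest in Trpm2-/- 4. Kidney markers were present, and the proximal tubule markers were lower in Trpm2-/- kidneys. With the mitochondrial genome left out of the fit, the members called lower were the same 3 as reported here.

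Of the 10 genes, 3 fell in Trpm2-/- kidneys and none rose, and all 3 belong to the ATG8 family: Gabarapl1, Map1lc3a and Gabarap. The other ATG8 genes, the 4 lipidation genes and Sqstm1 did not pass the test, which was edgeR's quasi-likelihood test at a Benjamini-Hochberg adjusted p under 0.05 over all genes tested. Among all 15816 genes tested, 7.28% were called lower and 4.74% higher. The 3 of 10 members called lower are read against that first share. At an unadjusted p under 0.05 edgeR gave 4 members lower and 0 higher, and the DESeq2 Wald test and limma-voom each called 3 lower and 0 higher. Over all genes, the unadjusted p gave 14.3% lower and 14.0% higher, the DESeq2 Wald test 8.93% and 6.3%, and limma-voom 7.28% and 4.41%. The threshold in the methods, a log2 fold change beyond 1 in either direction with p under 0.05, was passed by 0 members, against 4.1% of all genes lower and 3.5% higher. In 4 of 10 members every Trpm2-/- library lay below every WT library, and in 0 members every one lay above, where 16.8% and 16.7% of all genes tested did so. The median log2 fold change was -0.11 over the 10 members, -0.51 over the 5 ATG8 genes and -0.04 over the 4 lipidation genes, beside 0.02 over all genes tested.

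**Figure D1:**
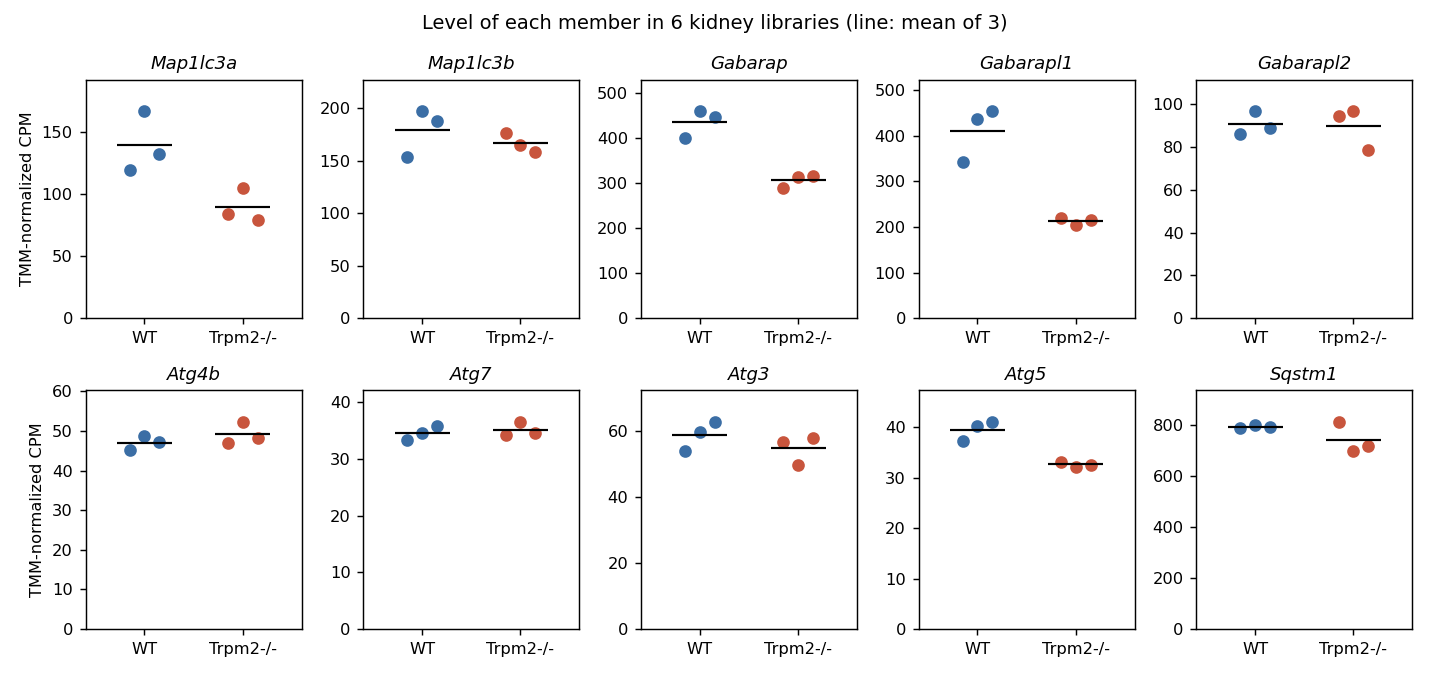
TMM-normalized CPM (y axis, from 0) of each of the 10 genes in the 3 WT (blue) and 3 Trpm2-/- (red) libraries, where each point is a library and the line is the mean of 3. The Trpm2-/- points lie below all WT points for Map1lc3a, Gabarap, Gabarapl1 and Atg5, and the groups overlap for the other genes.

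Gabarapl1 (ENSMUSG00000030161, plus strand of chromosome 6, 129533160 to 129542346), a GABARAP subfamily gene known to respond to stress and forkhead factors, had the largest difference of the 10. It was at 342, 437 and 454 CPM in WT 1, 2 and 3 and at 220, 205 and 215 CPM in Trpm2-/- 1, 2 and 4. The lowest WT library thus lay above every Trpm2-/- library, and the Trpm2-/- libraries lay close together. The mean fell from 411 ± 60.6 to 213 ± 7.35 CPM (SD, n = 3), a fitted decrease of 48.1%. On the log2 scale it differed by -0.95 (standard error 0.149, 95% interval -1.28 to -0.61, adjusted p = 0.00516 by edgeR's quasi-likelihood test), and 824 of the genes tested, 5.21%, had a lower log2 fold change. It was called lower under all 16 alternatives, with log2 fold changes between -1.07 and -0.84. Antisense to Gabarapl1 lies the non-coding 1700101I11Rik, whose exons overlap 570 of its 2013 exonic bases (28.3%). The strand setting of the counting is not given in the sources used here, so reads there cannot be told apart. The deposited table gives 1700101I11Rik 26 to 49 counts and Gabarapl1 3006 to 7406.

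Gabarap (ENSMUSG00000018567, plus strand of chromosome 11, 69991143 to 69994951), named for the GABA receptor that its protein binds, had 400, 460 and 447 CPM in WT 1, 2 and 3. In Trpm2-/- 1, 2 and 4 it had 290, 312 and 316 CPM. All Trpm2-/- libraries were below all WT libraries, and the gap between the groups was wider than the range within Trpm2-/-. The mean fell by 29.8% in the fit, from 436 ± 31.4 to 306 ± 14.4 CPM (SD, n = 3), with a log2 fold change of -0.51 (standard error 0.132, 95% interval -0.81 to -0.21, adjusted p = 0.0358 by edgeR's test). This call was close to the threshold: it was lost without WT 2, WT 3, Trpm2-/- 1, Trpm2-/- 2 or Trpm2-/- 4 (edgeR adjusted p = 0.158, 0.163, 0.0774, 0.0537 and 0.0520), and the value stayed between -0.57 and -0.40 over the 16 alternatives.

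Gabarapl2 (ENSMUSG00000031950, plus strand of chromosome 8, 111940703 to 111953612), also called GATE-16 and known from transport within the Golgi, did not pass the test. It had 86.1, 96.9 and 89.0 CPM in WT and 94.3, 96.8 and 78.6 CPM in Trpm2-/- 1, 2 and 4. The groups overlapped throughout, with the lowest and nearly the highest library both in Trpm2-/-. The log2 fold change was -0.01 (standard error 0.131, 95% interval -0.31 to 0.28, edgeR adjusted p = 0.966), and its sign turned with the scaling. Processed pseudogenes hold 9.53% of its 75-base windows, and the most counted of them, Gm3724, had 3 to 12 counts in a library.

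Map1lc3a (ENSMUSG00000027602, plus strand of chromosome 2, 155276297 to 155278073) encodes LC3A. Its levels were 119, 167 and 133 CPM in WT 1, 2 and 3, against 84.3, 105 and 79.0 CPM in Trpm2-/- 1, 2 and 4. WT 1 and Trpm2-/- 2 came closest, and the groups did not overlap. The mean fell by 36.0% in the fit, from 140 ± 24.8 to 89.4 ± 13.8 CPM (SD, n = 3), a log2 difference of -0.64 (standard error 0.168, 95% interval -1.02 to -0.27, adjusted p = 0.0373 by edgeR's test). This call too was close to the threshold. It was lost without WT 2, WT 3, Trpm2-/- 1 or Trpm2-/- 4 (edgeR adjusted p = 0.162, 0.109, 0.0970 and 0.0846) and held under 7 of 16 alternatives, with values between -0.78 and -0.50.

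Map1lc3b (ENSMUSG00000031812, plus strand of chromosome 8, 121590361 to 121598760) encodes LC3B, the form most often used as an autophagosome marker. It had 153, 197 and 188 CPM in WT and 177, 165 and 158 CPM in Trpm2-/- 1, 2 and 4. WT 1 was the lowest of the 6 libraries, and the Trpm2-/- values lay inside the WT range. The means were 180 ± 23.2 and 166 ± 9.50 CPM (SD, n = 3). The difference was -0.11 on the log2 scale, with a 95% interval of -0.42 to 0.20, and did not pass edgeR's test (adjusted p = 0.656). Of its 75-base windows 4.09% occur in 24 other genes, and most of these windows lie in the pseudogene Gm6055, which had 90 to 203 counts in a library. The difference between the LC3A and LC3B fold changes was not tested.

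**Figure D2:**
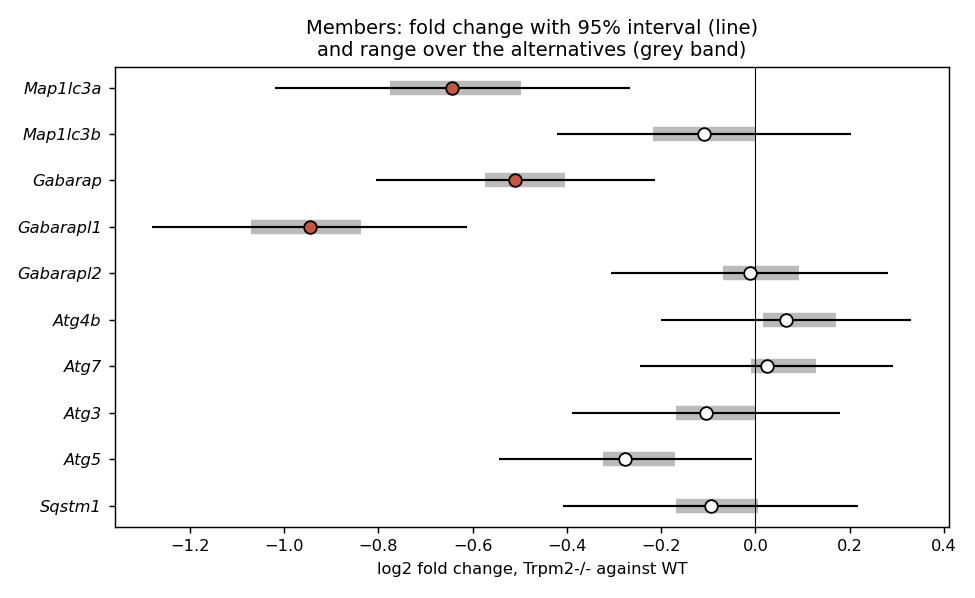
Log2 fold change of Trpm2-/- against WT (x axis) for each of the 10 genes. Points are edgeR estimates, filled where the adjusted p was under 0.05, lines are 95% intervals, and grey bands span the 16 alternatives. The filled points are Gabarapl1 at -0.95, Map1lc3a at -0.64 and Gabarap at -0.51, and the interval of Atg5 ends at -0.01.

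Levels of different genes can be set side by side only per length, as FPKM (counts scaled to gene length and library size). In WT kidneys the order of the mean FPKM was Gabarap (207 ± 14.6), Sqstm1 (206 ± 1.68), Gabarapl1 (179 ± 25.9), Map1lc3a (103 ± 18.4), Gabarapl2 (34.1 ± 2.10), Map1lc3b (20.9 ± 2.67), Atg3 (16.3 ± 1.19), Atg5 (14.7 ± 0.726), Atg4b (4.97 ± 0.187) and Atg7 (4.34 ± 0.142; SD, n = 3). Between neighbours in this order, the WT libraries overlapped for Gabarap with Sqstm1 and for Atg3 with Atg5, and all other neighbours were apart. In Trpm2-/- kidneys Sqstm1 (195 ± 16.3) stood first, followed by Gabarap (146 ± 7.21), Gabarapl1 (93.4 ± 3.58) and Map1lc3a (66.7 ± 9.86), and the other 6 genes kept their order, with no overlap between neighbours. The length matters most for Map1lc3b, which the deposited table takes as 7517 bases where its principal transcript has 2532. With the length of 1 principal transcript per gene, an alternative added after seeing the data, Map1lc3b reached 62.0 ± 7.93 in WT and passed Gabarapl2 at 47.3 ± 2.91, and Sqstm1 at 340 ± 2.77 passed Gabarap at 282 ± 19.9.

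Summed over the 5 ATG8 genes, the FPKM was 478, 592 and 561 in WT 1, 2 and 3 and 354, 372 and 355 in Trpm2-/- 1, 2 and 4. The Trpm2-/- sums were all below the WT sums, with means of 544 ± 58.8 and 360 ± 9.91 (SD, n = 3) and a ratio of 0.66. This sum is a description over chosen genes and was not tested. The LC3 genes summed to 106, 147 and 120 in WT and to 83.6, 97.2 and 78.0 in Trpm2-/- 1, 2 and 4, and the GABARAP genes to 372, 445 and 441 and to 270, 274 and 277. The sums of both subfamilies were thus lower in each Trpm2-/- library than in any WT library, and the GABARAP genes held most of the total throughout. On the deposited length the mean LC3 sum in Trpm2-/- was 0.69 times the WT mean, and on the transcript length 0.75 times. For the GABARAP sum these ratios were 0.65 and 0.66. Gabarapl1 made up 31.1% to 35.1% of the total on the deposited length in WT libraries and 24.1% to 27.2% in Trpm2-/- libraries. The share of Gabarapl2 was 5.95% to 6.79% in WT and 8.46% to 10.1% in Trpm2-/-, and that of Map1lc3b 3.74% to 3.89% and 5.18% to 5.85%. The shares of these 3 genes did not overlap between the genotypes, whereas those of Gabarap (36.9% to 39.8% and 39.1% to 42.9%) and Map1lc3a (17.5% to 20.94% and 16.7% to 20.98%) did. With the transcript length, the share of Map1lc3b was 8.61% to 8.99% in WT and 11.6% to 13.0% in Trpm2-/-. That of Gabarapl2 was then 6.42% to 7.30% and 8.81% to 10.5%. Shares are parts of 1 sum, so a share also rises when the levels of the other genes fall. The levels of Gabarapl2 and Map1lc3b were not called different (log2 fold changes -0.01 and -0.11). In CPM, 16.8% of all genes tested lay below WT in every Trpm2-/- library and 16.7% above.

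Within the subfamilies, the ratio of Map1lc3a to Map1lc3b in FPKM was 4.95, 5.39 and 4.49 in WT and 3.04, 4.05 and 3.18 in Trpm2-/- 1, 2 and 4, again without overlap. Its size depends on the length used, with means of 4.94 and 3.43 on the deposited length and 1.77 and 1.23 on the transcript length, whereas the Trpm2-/- mean was 0.69 times the WT mean on both. The ratio of Gabarapl1 to Gabarapl2 had means of 5.23 ± 0.656 in WT and 2.77 ± 0.361 in Trpm2-/- (SD, n = 3), and that of Gabarapl1 to Gabarap 0.86 and 0.64. No share or ratio was tested.

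**Figure D3:**
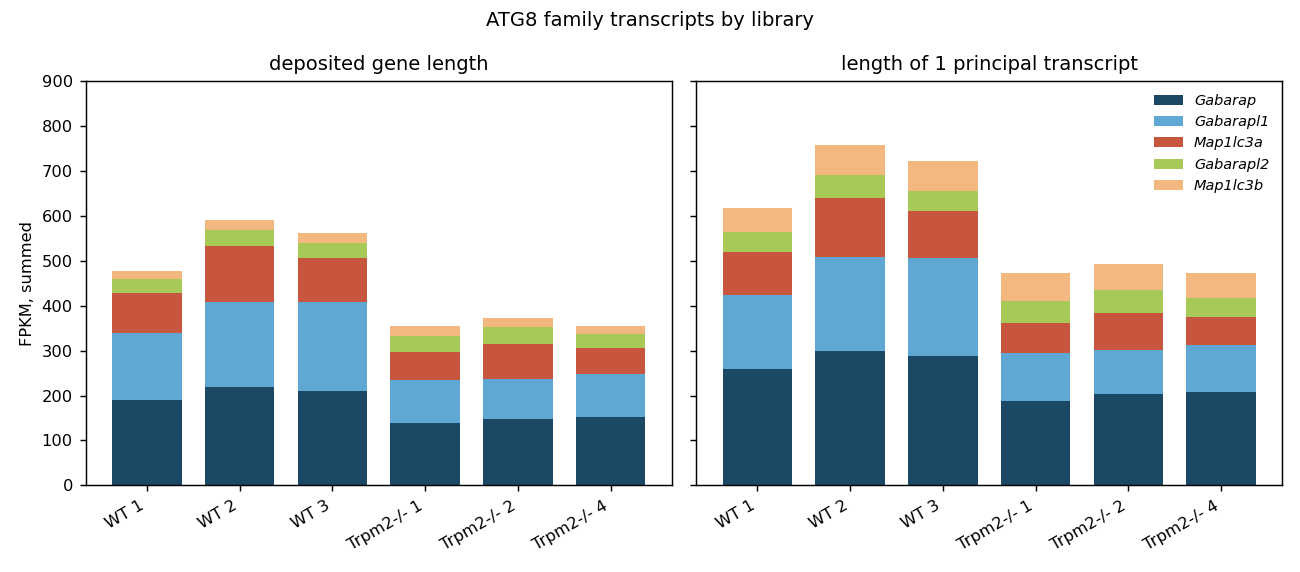
Summed FPKM (y axis, from 0) of the 5 ATG8 genes in each library, stacked by gene, with the deposited gene length on the left and the length of 1 principal transcript per gene on the right. All 3 Trpm2-/- bars (354 to 372 on the left) are lower than the WT bars (478 to 592), and the Gabarapl1 segment is shorter in each of them.

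The lipidation genes lay closer together. Atg5 (ENSMUSG00000038160, plus strand of chromosome 10, 44268358 to 44364291), part of the complex that directs lipidation, had 37.3, 40.3 and 41.2 CPM in WT 1, 2 and 3 and 33.2, 32.2 and 32.6 CPM in Trpm2-/- 1, 2 and 4. All Trpm2-/- libraries were below all WT libraries, with a spread of 0.48 CPM (SD) around 32.7. Its log2 fold change of -0.28 (standard error 0.120, 95% interval -0.54 to -0.01) had an unadjusted p of 0.0448 and an adjusted p of 0.165 by edgeR's test, so it was not called lower, here or under any of the 16 alternatives.

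Atg3 (ENSMUSG00000022663, plus strand of chromosome 16, 45158785 to 45188538), the E2-like enzyme, had 54.0, 59.8 and 62.8 CPM in WT and 56.6, 49.7 and 57.9 CPM in Trpm2-/- 1, 2 and 4. The difference was -0.10 on the log2 scale (95% interval -0.39 to 0.18), and the groups overlapped. Atg7 (ENSMUSG00000030314, plus strand of chromosome 6, 114643097 to 114860614), the E1-like enzyme shared by both conjugation steps, had 33.3, 34.6 and 35.8 CPM in WT and 34.2, 36.6 and 34.6 CPM in Trpm2-/-. Its groups overlapped, and its log2 fold change was 0.02 (95% interval -0.24 to 0.29). Atg4b (ENSMUSG00000026280, plus strand of chromosome 1, 93751500 to 93790610) encodes the protease that trims the ATG8 proteins. It had 45.1, 48.8 and 47.1 CPM in WT and 47.0, 52.4 and 48.3 CPM in Trpm2-/-, with a log2 fold change of 0.07 (95% interval -0.20 to 0.33). None of these 3 genes passed edgeR's test (adjusted p = 0.637 for Atg3, 0.925 for Atg7 and 0.766 for Atg4b).

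Sqstm1 (ENSMUSG00000015837, minus strand of chromosome 11, 50199366 to 50210827) had the most counts of the 10. Its levels were 787, 799 and 790 CPM in WT and 812, 696 and 716 CPM in Trpm2-/- 1, 2 and 4. Trpm2-/- 1 was the highest of the 6 libraries, while the other two Trpm2-/- libraries were below WT, so the groups overlapped. The means were 792 ± 6.01 and 741 ± 62.0 CPM (SD, n = 3), a log2 difference of -0.10 (95% interval -0.41 to 0.22, edgeR adjusted p = 0.704). Antisense to it, Mrnip overlaps 580 of its 3356 exonic bases (17.3%), with 32 to 96 counts in a library, against 10188 to 13263 for Sqstm1.

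Promoters of 9 of the 10 genes were matched in a RefSeq table on GRCm38.p6 (250 bases before the start to 50 after it), and Map1lc3a was not. The RefSeq start lay within 77 bases of the gene start in the deposited table for 6 of them, 227 bases inside for Gabarap, 3405 for Atg4b and 27999 for Atg7. Both strands were searched for CACGTG, the E-box core of TFEB sites, TGTTTAC, a forkhead element, and TGACNNNGC, the core of the antioxidant response element. These occur in 7.15%, 3.65% and 12.39% of the 32851 promoters in that table. CACGTG was found in Atg7, Atg3 (at -94 and -71 from the start) and Atg5 (at -14), and TGACNNNGC in Map1lc3b (at 5). No match lay in the windows of Gabarap, Gabarapl1, Gabarapl2, Atg4b and Sqstm1. The windows of Gabarapl1, the member with the largest difference, and of Atg5, which also lay below WT in every Trpm2-/- library, are shown 5′ to 3′ on the plus strand, at chr6:129532942-129533241 and chr10:44268089-44268388, with the match in capitals.
Gabarapl1: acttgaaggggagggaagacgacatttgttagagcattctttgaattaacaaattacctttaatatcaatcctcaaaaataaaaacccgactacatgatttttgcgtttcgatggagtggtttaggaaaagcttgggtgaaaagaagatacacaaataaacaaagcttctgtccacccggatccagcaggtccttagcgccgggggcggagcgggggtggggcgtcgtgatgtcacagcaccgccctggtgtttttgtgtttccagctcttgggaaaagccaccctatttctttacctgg
Atg5: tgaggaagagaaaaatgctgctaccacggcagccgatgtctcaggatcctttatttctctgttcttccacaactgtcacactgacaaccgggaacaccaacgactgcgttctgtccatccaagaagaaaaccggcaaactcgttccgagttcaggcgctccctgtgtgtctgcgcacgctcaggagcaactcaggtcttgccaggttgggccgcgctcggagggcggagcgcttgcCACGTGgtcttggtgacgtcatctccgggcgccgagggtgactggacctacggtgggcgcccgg
The 2 windows differ in the search, with no match in Gabarapl1 and 1 in Atg5. Only the patterns given above were searched for, so other forms of these elements, forkhead elements among them, were not looked for. A match is a run of letters, not a measured binding site.

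The other genes of the pathway were described from 4 lists of 37 genes, of which 36 were tested and Ccpg1 was not. Of the 36, 1 was called lower and 0 higher by edgeR, with a median log2 fold change of -0.06. The 1 gene is 2.78% of those tested, where 7.28% of all genes were lower and 4.74% higher. At an unadjusted p under 0.05 there were 4 lower and 4 higher (all genes 14.3% and 14.0%). The DESeq2 Wald test called 2 lower and 1 higher (all genes 8.93% and 6.3%), and limma-voom 2 lower and 0 higher (all genes 7.28% and 4.41%). The gene called lower was Tex264 (chromosome 9, 106658746 to 106685927), a receptor that binds ATG8 proteins and delivers endoplasmic reticulum to autophagosomes. It had 85.1, 104 and 120 CPM in WT and 55.1, 66.4 and 65.3 CPM in Trpm2-/- 1, 2 and 4, with no overlap. On the log2 scale it differed by -0.73 (standard error 0.155, adjusted p = 0.0176 by edgeR's test), and it was called under 11 of 16 alternatives. The call was lost without WT 2, WT 3 or Trpm2-/- 1, and the adjusted p ranged from 0.000188 to 0.0952 over the alternatives.

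By role, the 15 tested receptors that bind ATG8 proteins, Tex264 among them, had a median log2 fold change of -0.18, with 10 below 0 and 5 above. Of 8 further conjugation genes 0 were called in either direction by edgeR, with a median of -0.06. The smallest p among them was that of Atg4a, an ATG4 protease that prefers GABARAP proteins, with 74.1 ± 5.79 CPM in WT and 111 ± 28.2 CPM in Trpm2-/- (SD, n = 3), which differed by 0.59 on the log2 scale, with an edgeR adjusted p of 0.0699. Of 6 effectors that bind ATG8 proteins in transport and fusion 0 were called, with a median of 0.17, and Fyco1, an adaptor for transport along microtubules, had the smallest p (log2 fold change 0.54, edgeR adjusted p = 0.0845). Of 7 transcription factors known to act on autophagy genes 0 were called, with a median of 0.12, and Mitf, of the TFEB family, had the smallest p (log2 fold change 0.48, edgeR adjusted p = 0.148). At an unadjusted p under 0.05 the receptors had 3 lower and 1 higher, and both the DESeq2 Wald test and limma-voom called 2 of them lower and 0 higher. At the same p the conjugation genes had 1 lower and 1 higher, and the effectors and the transcription factors each had 0 lower and 1 higher. Of the genes of these last 3 lists, the DESeq2 Wald test called 1, Atg4a, which was higher, and limma-voom 0.

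**Figure D4:**
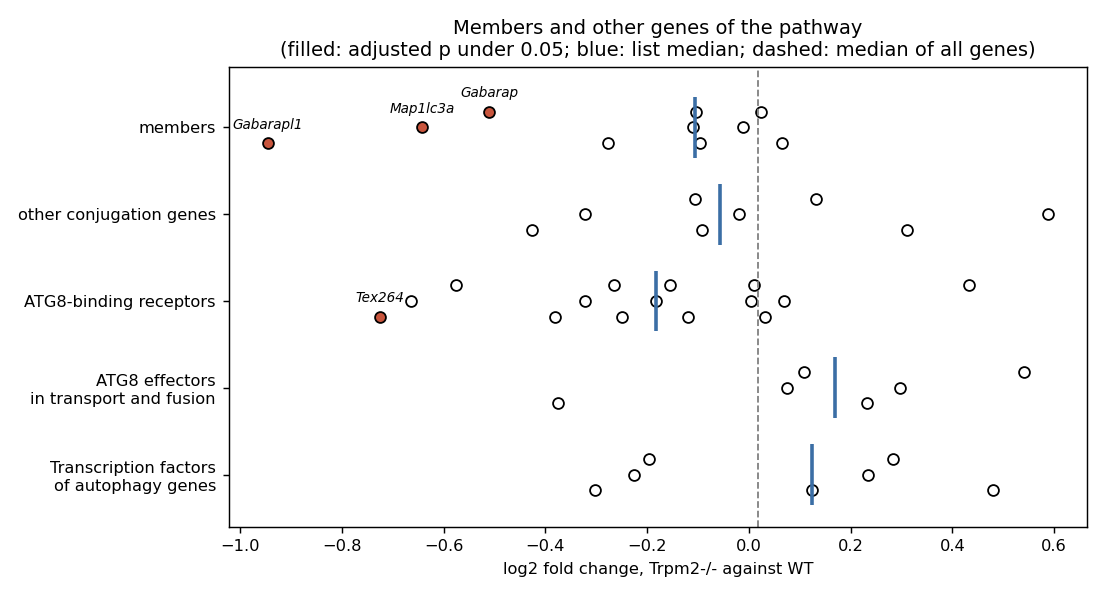
Log2 fold change of Trpm2-/- against WT (x axis) for the 10 members and the 36 tested genes of 4 pathway lists (rows), where each point is a gene, filled at an adjusted p under 0.05. Blue bars mark list medians (-0.11 for the members, -0.06, -0.18, 0.17 and 0.12 for the lists from top to bottom) and the dashed line the median of all genes, 0.02.

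Markers of kidney cell types moved between the same libraries. All 6 proximal tubule markers were called lower by edgeR, and their summed level was 1876 to 2452 CPM in WT and 416 to 828 CPM in Trpm2-/- libraries, a ratio of 0.297. Slc34a1, the phosphate transporter that defines this segment, had 1011 ± 244 CPM in WT and 152 ± 92.4 CPM in Trpm2-/- (SD, n = 3). In Trpm2-/- 1, 2 and 4 the summed level was 707, 416 and 828 CPM, beside 220, 205 and 215 CPM of Gabarapl1, 290, 312 and 316 CPM of Gabarap and 84.3, 105 and 79.0 CPM of Map1lc3a. The tubule markers and Gabarapl1 were both lowest in Trpm2-/- 2, where Map1lc3a was the highest of the 3, and Gabarap was lowest in Trpm2-/- 1. The highest of the 3 was Trpm2-/- 4 for the tubule markers and Trpm2-/- 1 for Gabarapl1. In WT 1, 2 and 3 the tubule sum was 1876, 2237 and 2452 CPM. Gabarapl1 had the same order there, with 342, 437 and 454 CPM. Gabarap (400, 460 and 447 CPM) and Map1lc3a (119, 167 and 133 CPM) were also lowest in WT 1 but highest in WT 2. In bulk RNA, fewer cells of a type and less RNA per cell cannot be told apart, and the part of the lower tubule markers in the lower ATG8 genes was not tested.

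The 2 thick ascending limb markers summed to 643 to 2021 CPM in WT and 160 to 734 CPM in Trpm2-/-, with Umod called lower, and the 2 collecting duct markers to 1040 to 1331 and 557 to 696 CPM, with Aqp2 called lower. The other marker of each list was not called. Slc12a1 had 305 ± 194 CPM in WT and 181 ± 136 CPM in Trpm2-/-, and Atp6v1g3 70.0 ± 12.1 and 70.5 ± 2.44 CPM (SD, n = 3). None of the other marker genes was called by edgeR. Summed levels were 125 to 143 CPM in WT and 24.3 to 169 CPM in Trpm2-/- for the 2 distal convoluted tubule markers (Pvalb was not tested and had 0 counts in Trpm2-/- 2), 21.1 to 36.1 and 32.2 to 122 CPM for the 2 podocyte markers, and 25.0 to 36.0 and 19.3 to 84.7 CPM for the 2 endothelial markers. The highest values of these 3 sums were in Trpm2-/- 4. The 3 leukocyte markers summed to 60.1 to 73.9 and 58.3 to 76.5 CPM, and the 2 fibroblast markers to 19.7 to 35.6 and 16.0 to 59.4 CPM. Most of the leukocyte sum was Cd68, with means of 65.5 and 62.9 CPM. Ptprc had means of 2.75 and 4.67 CPM (edgeR adjusted p = 0.164). It was above WT in every Trpm2-/- library, as were 16.7% of all genes tested. Adgre1 had means of 0.770 and 0.626 CPM. The injury genes Havcr1 and Lcn2 together had 2101 to 2490 CPM in WT and 2808 to 3486 CPM in Trpm2-/-, a ratio of 1.36, and neither was called. Havcr1 had 1142 to 1393 CPM in WT and 1554 to 1902 CPM in Trpm2-/- (edgeR adjusted p = 0.0747). Lcn2 had 959 to 1327 and 1253 to 1584 CPM, which overlapped (edgeR adjusted p = 0.199). The part of these lists in the ATG8 result was not tested either.

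**Figure D5:**
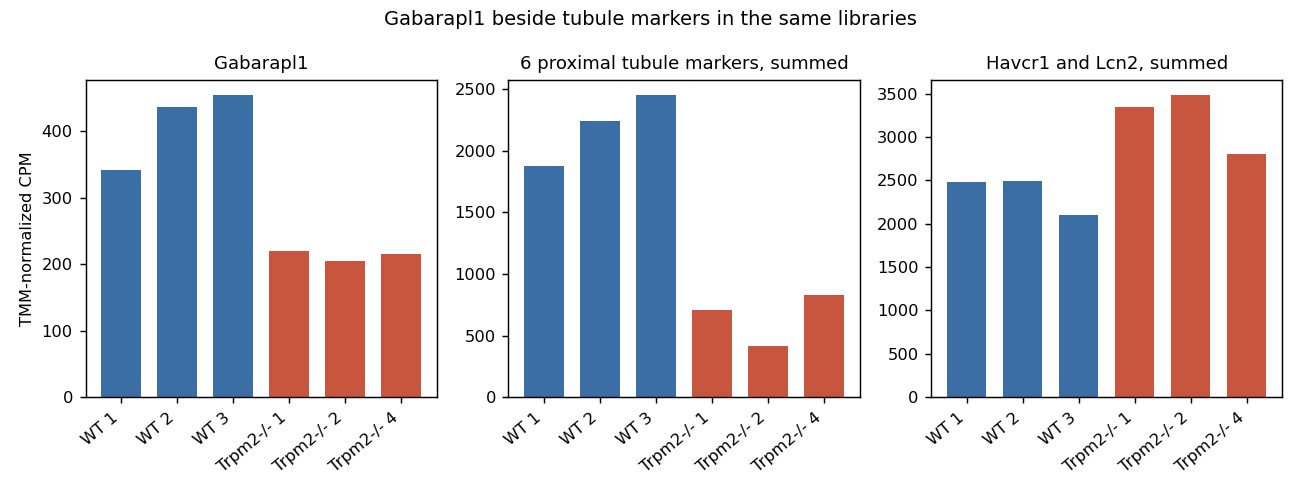
TMM-normalized CPM (y axes, from 0) of Gabarapl1, of the 6 proximal tubule markers summed, and of Havcr1 and Lcn2 summed, with 1 bar per library. In Trpm2-/- libraries (red) Gabarapl1 is at 205 to 220 CPM and the proximal tubule sum at 416 to 828, both below every WT library (blue). The blue bars of both rise from WT 1 through WT 2 to WT 3. Among the red bars both are lowest in Trpm2-/- 2, but the highest differ, Trpm2-/- 1 for Gabarapl1 and Trpm2-/- 4 for the sum. The sum of the injury genes is above every WT library in each Trpm2-/- library.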

How the data were processed

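Both tables hold the same 54532 genes in 6 libraries. The deposited count table gives raw reads per gene, in whole numbers with no scaling applied by the authors. The deposited FPKM values equal these counts divided by the length given for the gene and by 1 size per library. This size is not the total of the count table. It was larger than that total in every library, by a factor that differed between libraries. WT 2 had more counts than WT 1 (16775965 against 15991951) but the smaller size. The fits on FPKM are therefore not fits on library totals, and the origin of this size was not tested. The submitters' processing notes name HISAT2, StringTie and mm9, with no role, but the gene positions in the tables equal those of GRCm38 (GENCODE mouse release 21) for all 10 members. The strand setting and the counting tool are not given in the sources used here. By the methods, libraries were made with a NEBNext kit from Trizol-extracted RNA.

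Counts were fitted in edgeR 4.0.16 (R 4.3.3) with genotype only, TMM normalization and the default filterByExpr, and the two-sided quasi-likelihood test was adjusted by Benjamini-Hochberg over all genes tested. Genes had a common dispersion of 0.0445. For the standard error, the size of the log2 fold change was divided by the root of the F statistic. Genes were called at an adjusted p under 0.05. Levels between genes were compared in FPKM. The alternatives were DESeq2 size factors, library totals, no filter, DESeq2 1.42.0, limma-voom and limma 3.58.1 on log2(FPKM + 1) or log2(FPKM + 0.1), the last 2 at a mean FPKM of at least 1 and the former also without it, leaving out the mitochondrial genome, a replicate block, and leaving out each library. The fits were also run on simulated counts, with the same dispersion for all genes and larger fold changes than any member had. That run does not check calls of the size seen in the members. Shared 75-base windows, exon overlaps, coding ends and promoter motifs were computed from the GENCODE and RefSeq references with Python 3.11.15, and were chosen after seeing the data.

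All 10 members are named with their values. Of each pathway list, the genes called are named, or, where none is called, the one with the smallest p, and Ccpg1 is named as not tested. Marker genes were named where they stand beside a result. The members and lists were chosen with earlier results of these data known. No 2 libraries of a genotype agreed within counting noise.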

Additional observations from a re-analysis of the deposited data

How the results depend on the processing

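Gabarapl1 kept its direction and its call under all 16 alternatives, with adjusted p from 2.05e-07 to 0.0381. Map1lc3a and Gabarap kept their direction under all 16 and their call under 7 and 8, with adjusted p from 0.00150 to 0.162 and from 0.00385 to 0.165. The number of members called lower, 3, was 1 (Gabarapl1) with library totals in place of TMM, with limma on log2(FPKM + 1) without a filter, and with the replicate block. With each library left out it ranged from 1 to 3, and it was 1 without WT 2, WT 3, Trpm2-/- 1 or Trpm2-/- 4. Members past the threshold in the methods numbered 0 to 1 with each library left out, with Gabarapl1 passing it without WT 1. Of the other genes of the pathway, 1 was called lower and 0 higher. The numbers were 1 lower and 1 higher with library totals, 3 and 2 with no filter, 2 and 1 with the DESeq2 Wald test, 2 and 0 with limma-voom, 0 and 0 with limma without a filter, and 0 and 1 with the replicate block. They ranged over 0 to 2 and 0 to 2 with each library left out, with 0 lower without WT 2 or WT 3, 2 lower without WT 1, 2 and 2 without Trpm2-/- 2, and 1 higher without Trpm2-/- 4. All the alternatives for the pathway genes beyond DESeq2 size factors, limma-voom, the block and the left-out libraries were added after seeing the data, as were those for the threshold of the methods. The cause of these changes was not tested.

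Signs turned where values were near 0. Gabarapl2 was at 0.092 with library totals, 0.000800 with the mitochondrial genome left out, 0.065 with the block, 0.035 without WT 2 and 0.0855 without Trpm2-/- 4. Atg3 and Sqstm1 were at 0.000548 and 0.00622 with library totals, and Atg7 was at -0.0092 without WT 1 and at -0.0081 without Trpm2-/- 2. With each library left out, Gabarapl2 ranged from -0.0698 to 0.0855 and Atg7 from -0.0092 to 0.0439. The mean ratio of Map1lc3a to Map1lc3b was 0.777 in WT and 0.538 in Trpm2-/- on CPM, and 1.77 and 1.23 on transcript length, which follows from the lengths. With each library left out it ranged from 4.72 to 5.17 in WT and from 3.11 to 3.62 in Trpm2-/-.

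Over all genes, 1152 were called lower and 750 higher, so 60.6% of calls were lower. Library totals shifted the median of all genes by 0.102 on the log2 scale and gave 898 lower and 1141 higher (44.0% lower). Limma without a filter called 405 and 105 (79.4% lower), and limma with the filter 481 or 482 higher. The counts were 521 and 176 without WT 2 (74.7% lower), 470 and 160 without WT 3 (74.6%), and 848 and 421 without Trpm2-/- 1. The sample titles give both genotypes a number 1 and a number 2. Deviations of same-numbered libraries from their group means had correlations of 0.0641 and -0.0120. Those of the other pairs lay between -0.248 and 0.217. With 3 libraries a genotype, these values cannot decide whether the numbers pair the libraries. The block on these numbers called 661 lower and 341 higher, and 1 member. With no filter on low counts 1692 of 28884 genes were lower and 1262 higher. With 3 libraries a genotype, the 95% intervals of the members not called reached down to -0.54 (Atg5) and up to 0.33 (Atg4b).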
